A study of Mus musculus with 4 samples.

Results

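The genes described here are 10 antioxidant and redox genes of pancreatic islets, the hormone-secreting cell clusters of the pancreas. They are Txnip and Txn1 of the thioredoxin system, the superoxide dismutase genes Sod1 and Sod2, the catalase gene Cat, the glutathione peroxidase genes Gpx1, Gpx3 and Gpx4, and the inducible genes Hmox1 and Nqo1. Each was found by its symbol in a table of 52636 Ensembl genes, and all 10 were among the 16924 genes with enough counts to be tested. RNA was sequenced from whole islets of wild-type mice (control, 2 libraries) and of Tspan7 knockout mice with the genotype Tspan7 y/- (knockout in the sample labels, knockdown in the text on the series, 2 libraries). Tspan7 lies on the X chromosome and encodes a membrane protein of the tetraspanin family, and the study asks how its loss affects beta-cell exocytosis. The labels give no age and do not say whether the libraries came from separate animals, so p-values measure the spread between these libraries, which may be technical.

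Cells turn superoxide, a by-product of respiration, into hydrogen peroxide with superoxide dismutases, Sod1 in the cytosol and Sod2 in mitochondria. Catalase, the glutathione peroxidases and the peroxiredoxins then remove the peroxide, the last with electrons from thioredoxin. Beta cells are known for low catalase and low glutathione peroxidase activity compared with other tissues. Txnip, which binds and inhibits thioredoxin, is one of the most glucose-responsive genes of the islet, and its promoter is bound by the glucose-sensing factor ChREBP, encoded by Mlxipl.

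The promoter of Txnip is shown because Txnip was the most abundant of the 10 genes in CPM (counts per 1000000 counts of a library, after scaling between libraries) and because the genes of its glucose-sensing regulators were measured beside it. The sequences are RefSeq windows on GRCm38.p6, read 5′ to 3′ along the gene, and 9 of the 10 genes matched an entry, the other being Hmox1. The capitals in Txnip (chr3:96557707-96557956, plus strand, the 250 bases before the start) mark a match to the carbohydrate response element, searched as CACGNG, any 5 bases and CNCGNG. The capitals in Pklr, the liver-type pyruvate kinase gene and a classic ChREBP target (chr3:89136431-89136491, plus strand), mark the same motif.
Txnip: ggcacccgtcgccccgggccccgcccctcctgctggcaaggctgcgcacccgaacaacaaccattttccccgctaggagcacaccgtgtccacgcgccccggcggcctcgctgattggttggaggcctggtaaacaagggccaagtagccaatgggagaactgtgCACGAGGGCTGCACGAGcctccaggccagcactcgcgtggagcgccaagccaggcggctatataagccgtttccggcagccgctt
Pklr: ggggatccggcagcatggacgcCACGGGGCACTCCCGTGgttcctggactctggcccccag
The Txnip match lay from 85 to 69 bases before the start, and the Pklr match from 170 to 154 bases before it. Searched on both strands, this motif was in 0.365% of all 32851 promoter windows, and Txnip was the only one of the 9 genes with a match. Of 77 related genes with a window, from the lists described below, 3 had a match. These were Pklr, the peroxisome gene Abcd3 and the selenoprotein synthesis gene Sephs2, while Arrdc4, a relative of Txnip, had none in its window.

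A shorter motif, the core of the antioxidant response element (TGACNNNGC, the site type bound by the transcription factor Nrf2), was searched in the same windows on both strands. Of the 9 genes only Sod1 held it, on the opposite strand, from 56 to 48 bases before the start. It was in 12.4% of all windows and in 14% of all genes with a window. Of the 77 related genes with a window, 19 held it. The stretch is chr16:90220672-90220731 on the plus strand, with the match in capitals as its reverse complement.
Sod1: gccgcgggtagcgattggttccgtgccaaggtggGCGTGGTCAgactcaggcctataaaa
The E-box CACGTG, which can overlap the carbohydrate response element, was in none of the 9 and in 7.15% of all windows. It was in 12 of the 77 related genes and in 8.09% of all genes with a window. These windows are short, and a gene without a match may hold the motif elsewhere.

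The libraries held 7855665 to 9377220 counts, and the detection floor of 3 counts equals 0.312 to 0.398 CPM. The counts of Tspan7 were 1924 and 1795 in the controls but only 3 and 2 in the knockouts, which matched the labels. Islet markers were abundant in every library, with a summed 12843 to 17023 CPM for 8 beta-cell and 6385 to 8339 CPM for 5 alpha-cell markers. The libraries differed most in material from the exocrine pancreas, where the 10 acinar markers summed to 2558 and 62.9 CPM in control replicates 1 and 2 and to 1159 and 5353 CPM in knockout replicates 1 and 2. The 9 genes of isolation stress (Fos, Jun and others) followed the same order, at 1161 and 297 CPM in control and 855 and 2517 CPM in knockout libraries.

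None of the 10 antioxidant genes passed the test between knockout and control. EdgeR's quasi-likelihood test called 0 of them at an adjusted p under 0.05. At an unadjusted p under 0.05 there were 0, against 3.51% of all genes tested. DESeq2 and limma-voom also called 0. The unadjusted count was 1 with upper-quartile scaling and 1 with no low-count filter, against 575 of 16924 and 1401 of 32032 tested genes. Over all genes the main edgeR test called 0.00591% (only Tspan7), so a count of 0 among 10 is what the background gives. The median log2 fold change of the 10 was -0.07 (all tested genes 0.0034), with 9 negative values and 1 positive. This median was 0.0047 without knockout replicate 1. For Txnip, Txn1 and Hmox1 the knockout pair lay below the control pair, 3 of 10 genes against 15% of all genes tested, and for Sod2 it lay above, 1 of 10 against 15.3%. Together 4 of the 10 had groups that did not overlap, against 30.3% of all genes, and in the other 6 the groups overlapped.

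**Figure D1:**
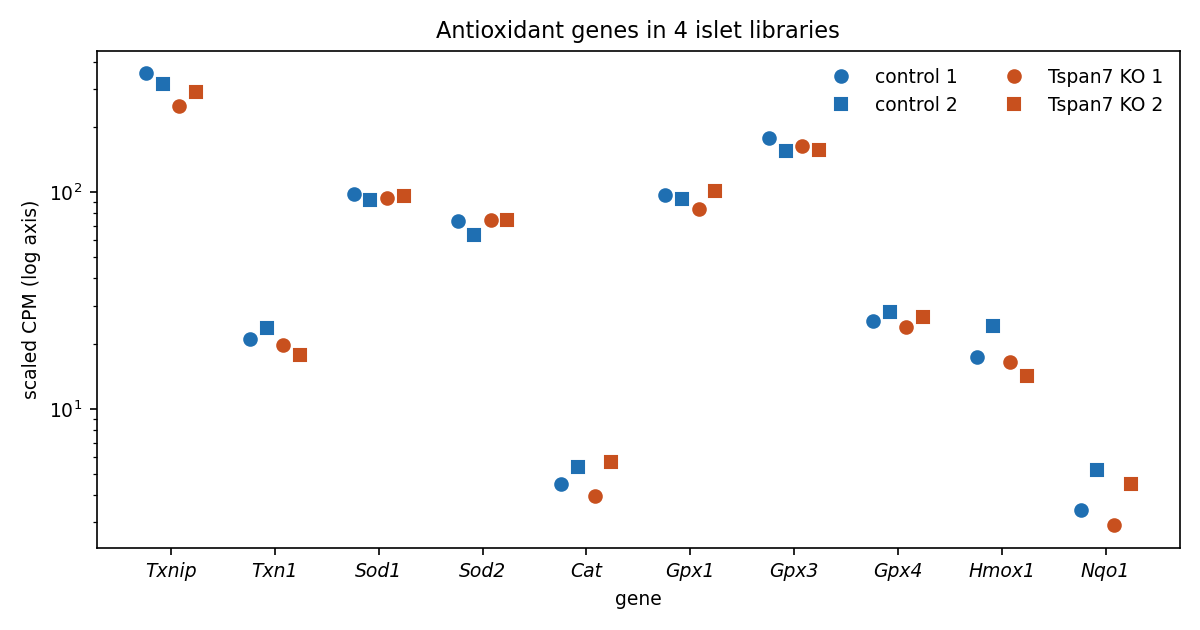
Scaled CPM (log axis) of each of the 10 antioxidant genes in the 2 control (blue) and 2 Tspan7 knockout (orange) libraries, with circles for replicate 1 and squares for replicate 2. The levels ran from Txnip at 249 to 353 CPM down to Nqo1 at 2.91 to 5.21 CPM, and the groups did not overlap for Txnip, Txn1, Hmox1 and Sod2.

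Txnip (ENSMUSG00000038393) measured 353 and 314 CPM in the control libraries and 249 and 289 CPM in the knockout libraries. All 4 values rested on at least 2182 counts. The knockout mean of 269 ± 28.5 CPM was 80.6% of the control mean of 334 ± 27.5 CPM (SD, n = 2 each), and the gap between control replicate 2 and knockout replicate 2, the nearest pair, was smaller than the gap within either group. The log2 fold change was -0.31 ± 0.14 (SE), with a 95% confidence interval from -0.64 to 0.02 and it did not pass in edgeR (adjusted p = 0.9997). With 1 library left out it ran from -0.42 (without knockout replicate 2) to -0.20 (without knockout replicate 1). Txnip exons overlap those of the antisense gene Gm15441 over 606 bases in GENCODE M21. Gm15441 gave 123 and 108 CPM in control and 90.0 and 107 CPM in knockout libraries. Since the use of strand in counting is not given in the sources used here, reads of the overlap cannot be assigned to either gene.

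Txn1, the cytosolic thioredoxin that Txnip inhibits, measured 21.1 and 23.7 CPM in control and 19.6 and 17.8 CPM in knockout libraries. The groups lay apart by the narrow gap between control replicate 1 and knockout replicate 1. Its log2 fold change was -0.26 ± 0.17, with an interval from -0.65 to 0.13, and -0.17 without control replicate 2. Both Txnip and its target Txn1 had intervals that included 0.

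Of the superoxide dismutases, Sod1 varied least over the 4 libraries of all 10 genes, relative to its mean, at 98.0 and 91.8 CPM in control and 93.7 and 95.7 CPM in knockout libraries. Its log2 fold change was -0.0030 ± 0.13, with an interval from -0.31 to 0.30, that is from 0.809 to 1.23 times control. So small a value changed sign between fits, and it was positive on leaving out control replicate 1 (0.04) or knockout replicate 1 (0.02). Sod2 measured 73.2 and 63.6 CPM in control and 74.8 CPM in each knockout library. Control replicate 2 was the low one, and control replicate 1 lay just under the knockout libraries. The log2 fold change of Sod2 was 0.13 ± 0.14 (interval -0.19 to 0.45), and 0.03 without control replicate 2.

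Catalase, which breaks down peroxide in peroxisomes, was near the bottom of the set. Cat measured 4.50 and 5.42 CPM in control and 3.95 and 5.70 CPM in knockout libraries, from 38 to 51 counts. The lowest and the highest value were both knockout libraries. The low counts left a wide interval for its log2 fold change of -0.05 ± 0.31, from -0.76 to 0.65, so levels from 0.591 to 1.57 times control were inside it. Leaving out control replicate 2 gave 0.09, and leaving out knockout replicate 1 gave 0.20.

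The glutathione peroxidases Gpx1, Gpx3 and Gpx4 are selenoproteins that reduce peroxides with glutathione. Gpx1, the cytosolic form, measured 96.8 and 93.2 CPM in control and 83.8 and 102 CPM in knockout libraries. The knockout libraries lay on either side of the controls, and the log2 fold change was -0.04 ± 0.15 (interval -0.37 to 0.30, and 0.10 without knockout replicate 1). Gpx3, the secreted form, was the most abundant of these, at 177 and 154 CPM in control and 163 and 156 CPM in knockout libraries. Both knockout values lay between the 2 controls. Its log2 fold change was -0.06 ± 0.14 (interval -0.37 to 0.26, and 0.05 without control replicate 1). Gpx4, which reduces lipid peroxides in membranes, measured 25.6 and 28.1 CPM in control and 24.0 and 26.6 CPM in knockout libraries, a log2 fold change of -0.08 ± 0.16 (interval -0.45 to 0.28). That value was -0.02 on leaving out control replicate 2 and -0.0061 on leaving out knockout replicate 1, against -0.15 and -0.16 on leaving out control replicate 1 or knockout replicate 2. In the sum of the 3 genes, the control libraries held 300 and 276 CPM and the knockout libraries 271 and 284 CPM, so the groups overlapped there as well.

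Hmox1, the inducible haem oxygenase, had the most negative value of the set. It measured 17.4 and 24.0 CPM in control and 16.5 and 14.2 CPM in knockout libraries. Control replicate 2 stood above the other 3 libraries, and control replicate 1 was within 1 CPM of knockout replicate 1. The log2 fold change was -0.43 ± 0.21 (interval -0.92 to 0.05), -0.18 without control replicate 2 and -0.64 without control replicate 1. Nqo1, a quinone reductase and a standard reporter of Nrf2 activity, measured 3.43 and 5.21 CPM in control and 2.91 and 4.51 CPM in knockout libraries, from 28 to 49 counts. In both groups replicate 2 was the higher one, and its log2 fold change of -0.24 ± 0.36 (interval -1.06 to 0.58) turned to 0.09 on leaving out control replicate 2 and to 0.06 on leaving out knockout replicate 1.

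**Figure D2:**
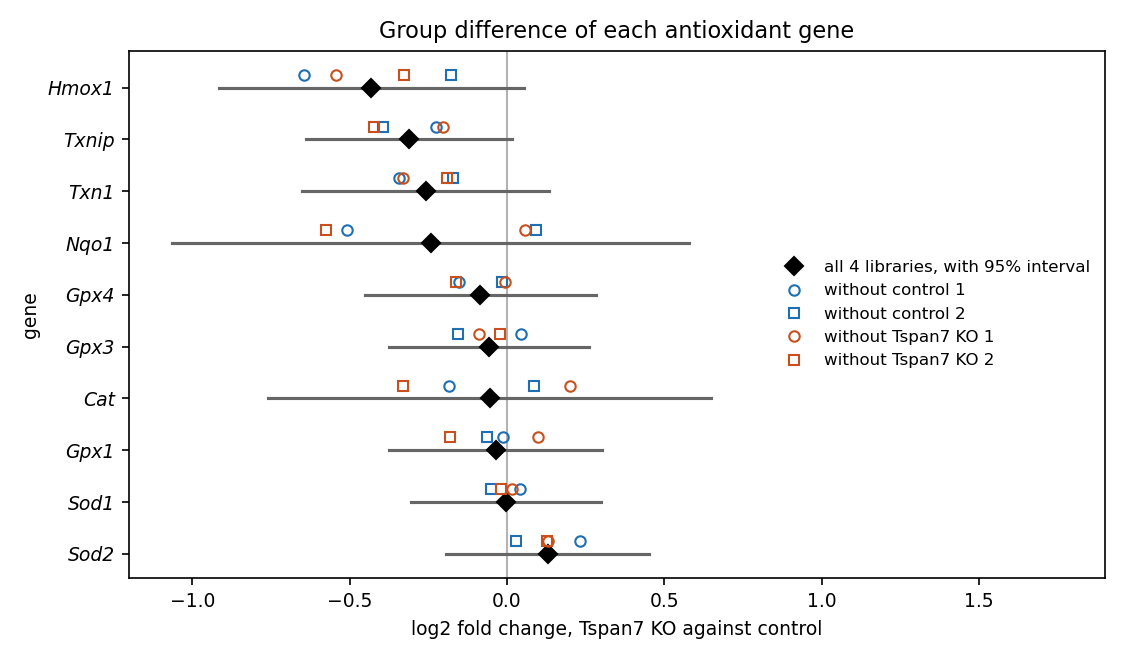
Log2 fold change of knockout against control for the 10 genes, with black diamonds for all 4 libraries, grey lines for the 95% interval and open symbols for the fits that leave out 1 library each. All 10 intervals include 0, and the open symbols lie on both sides of 0 for Nqo1, Cat, Gpx1, Gpx3 and Sod1.

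Summed over the 10 genes, the control libraries held 871 and 804 CPM and the knockout libraries 732 and 786 CPM. Txnip made up 34.0% to 40.6% of the sum. Without it the control libraries held 517 and 489 CPM and the knockout libraries 483 and 497 CPM, and the groups overlapped. The typical distance between 2 libraries over the 10 genes (median absolute log2 ratio) was 0.186 between the controls and 0.184 between the knockouts. Between control and knockout it was 0.111 for the libraries numbered 1 and 0.122 for those numbered 2, the smallest of all 6 pairs, and 0.217 and 0.253 for the other pairs.

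Levels of different genes were compared as CPM per kilobase of merged exons, averaged over the 4 libraries. In order these were Txnip at 96.5, Gpx3 at 89.8, Gpx1 at 65.1, Sod1 at 23.9, Txn1 at 19.5, Gpx4 at 15.1, Hmox1 at 10.3, Sod2 at 7.15, Nqo1 at 2.58 and Cat at 1.87 CPM per kilobase. Txnip and Gpx3 overlapped over the 4 libraries (79.7 to 113 and 85.2 to 97.9), as did Nqo1 and Cat (1.87 to 3.35 and 1.51 to 2.18), while all other neighbours lay apart. Cat was last in every library. The order rests on gene length, and the exons of Sod1 merge to 3970 bases while its coding transcripts have a median of 641. By that median length, Sod1 came first at 148 CPM per kilobase, before Gpx1 at 119, Txnip at 107 and Gpx3 at 102, and Nqo1 at 2.58 and Cat at 2.88 were still the lowest.

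Hmox1 is strongly expressed by tissue macrophages. No marker of any cell type passed the test in edgeR. The 10 macrophage markers (C1qa, Adgre1, Csf1r and others) summed to 107 and 90.3 CPM in control and 76.5 and 65.4 CPM in knockout libraries, with 10 of 10 negative log2 fold changes, a median of -0.56 and none at 0 counts in all libraries. In 7 of these 10 the knockout pair lay below the control pair, against 15% of all genes. The same held for 5 of 7 tested endothelial and 4 of 6 tested stellate and fibroblast markers, so this was not particular to macrophages. The 7 endothelial markers summed to 461 and 476 CPM against 398 and 456 CPM, and the 8 stellate and fibroblast markers to 204 and 239 CPM against 155 and 199 CPM. Duct markers, 7 in number, also summed lower in both knockouts, at 403 and 573 CPM against 373 and 341 CPM. Of the 6 duct markers tested, 3 were negative and 3 positive, and the knockout pair lay below the control pair in 1. The median log2 fold change was -0.25 for the endothelial list (6 of 7 tested negative) and -0.57 for the stellate list (5 of 6 negative). It was 1.27 for the acinar list (8 of 8 positive) and 1.43 for the isolation stress list (9 of 9 positive), but there the groups overlapped in all 8 and in all but 2 genes. In such bulk samples fewer cells of a type and less RNA per cell cannot be told apart. Whether these cells have a part in the Hmox1 and Txnip values was not tested. The acinar markers did not order the libraries by group, with a control library lowest and a knockout library highest. The 5 red blood cell markers summed to 1.66 to 2.80 CPM, the 6 lymphocyte markers to 1.77 to 2.25 CPM and the 4 adipocyte markers to at most 0.208 CPM.

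**Figure D3:**
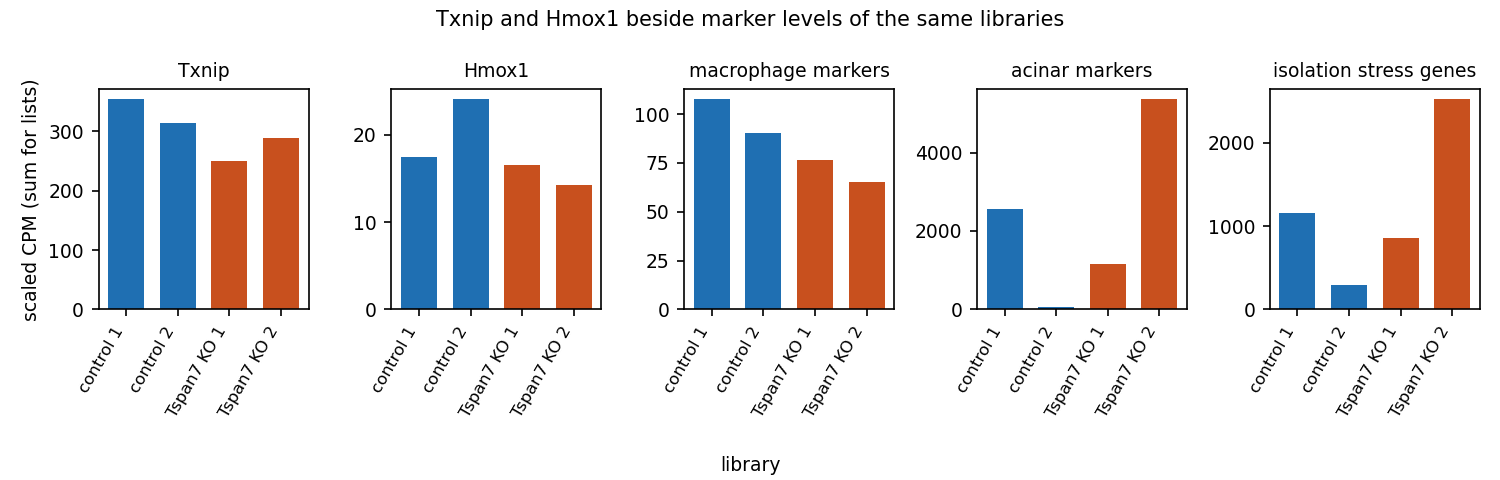
Scaled CPM of Txnip and Hmox1 and summed scaled CPM of the macrophage markers, acinar markers and isolation stress genes in each library, with control in blue and knockout in orange and bars starting at 0. Macrophage markers were between 65.4 and 107 CPM with both controls above both knockouts, as for Txnip and Hmox1. The sums of the endothelial, stellate and fibroblast, duct and lymphocyte markers, not drawn, had that order too, the last at no more than 2.25 CPM. The red blood cell sum had the reverse order, and the beta-cell and alpha-cell sums overlapped between the groups. The acinar markers ran from 62.9 to 5353 CPM with no order by group.

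Around these 10 genes, 9 further lists of 91 redox-related genes were examined, and edgeR called 0 of their 81 tested members. Of the 81, 3 were at an unadjusted p under 0.05, and limma-voom on the same 81 called 0 with 3. DESeq2, run without the low-count filter, tested 89 and called 0. It had 1 of them at an unadjusted p under 0.05, against 240 of all 32032 genes. In the edgeR fit of all 4 libraries 3.51% of all genes had an unadjusted p under 0.05. The thioredoxin, peroxiredoxin and glutaredoxin genes had 11 of 16 negative values and a median of -0.08, and -0.12 without knockout replicate 2. In this list Prdx1, the abundant cytosolic peroxiredoxin, measured 130 and 125 CPM in control and 104 and 102 CPM in knockout libraries. Its libraries formed 2 tight pairs, and its log2 fold change was -0.31 ± 0.13 (interval -0.61 to -0.01, unadjusted p = 0.0428 and adjusted p = 0.9997 in edgeR), between -0.34 and -0.28 with any library left out. Srxn1, which repairs over-oxidised peroxiredoxins, stood at -0.38 ± 0.20, with knockout replicate 2 at 74.1 CPM below the other 3 libraries at 109 to 128 CPM, and at -0.13 without that library and -0.69 without knockout replicate 1.

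Glutathione synthesis, reduction and transfer genes had a median of -0.11 over 12 tested of 19, with 8 negative values, which moved to -0.03 and -0.07 on omitting control replicates 1 and 2. Gpx2, the epithelial glutathione peroxidase, stood at -0.37 ± 0.23 and the glutathione transferase gene Gstm1 at 0.28 ± 0.16, so the members with the smallest p had opposite signs. Without control replicate 2 these were -0.23 and 0.15. The extracellular superoxide dismutase gene Sod3 gave 4 to 8 counts per library and was not tested, and Gpx5 and Gpx6 gave 0 counts, which at a floor of 3 counts allows up to 0.398 CPM. The 8 genes of NADPH supply, the source of reducing power for both systems, had 6 negative values and a median of -0.14 (-0.23 without knockout replicate 2). Among them Pgd of the pentose phosphate pathway measured 27.1 and 27.4 CPM in control and 22.4 and 20.1 CPM in knockout libraries (-0.35 ± 0.16). Malic enzyme Me1 stood at -0.46 ± 0.21, and at -0.71 and -0.16 on omitting control replicates 1 and 2.

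The regulators of the Nrf2 pathway had a median of 0.06 over 8 genes, which was 0.15 and -0.08 on omitting control replicates 1 and 2. Nfe2l2, the gene of Nrf2 itself, measured 66.6 and 58.7 CPM in control and 66.7 and 65.6 CPM in knockout libraries. Keap1, its inhibitor, stood at -0.18 ± 0.15 (-0.07 without control replicate 2, -0.10 without knockout replicate 2 and -0.28 without control replicate 1). The small Maf gene Maff stood at 0.49 ± 0.32, with control replicate 2 at 29.7 CPM and the other 3 libraries at 57.7 to 66.8 CPM, and at 1.07 and 0.07 on omitting control replicates 1 and 2. Control replicate 2 was also the lowest in the isolation stress genes, at 297 CPM against 855 to 2517 CPM, and the part of stress in the Maff value was not tested. Haem and iron genes had a median of -0.14 over 9 genes (-0.07 on omitting control replicate 2, 0.10 on omitting knockout replicate 1). In other fits of all 4 libraries that median was -0.01 with limma-voom and -0.01 with the replicate number as a block. The biliverdin reductase gene Blvra, which acts after haem oxygenase, stood at -0.49 ± 0.29 and the iron exporter gene Slc40a1 at -0.33 ± 0.18. Blvra stood at -0.25 and -0.75 on omitting knockout replicates 1 and 2 in turn, and Slc40a1 at -0.52 and -0.10 on omitting control replicates 1 and 2.

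Of the glucose-sensing regulators of Txnip, Mlxipl had the smallest p. It measured 102 and 90.1 CPM in control and 127 and 120 CPM in knockout libraries, with both knockouts above both controls. Its log2 fold change was 0.36 ± 0.14 (interval 0.05 to 0.68, unadjusted p = 0.0286 and adjusted p = 0.9997 in edgeR) and its sign was opposite to that of Txnip. Its dimerisation partner gene Mlx stood at -0.26 ± 0.18, a value that was -0.01 on leaving out control replicate 2 and -0.48 on leaving out control replicate 1. Arrdc4, a relative of Txnip that answers to the same factors, measured 30.4 and 34.0 CPM in control and 30.6 and 24.0 CPM in knockout libraries, and Pklr, whose promoter shares the motif of Txnip, 9.58 and 7.86 CPM against 8.41 and 10.7 CPM. Both overlapped between the groups, for Arrdc4 only because knockout replicate 1 lay just above control replicate 1. The log2 fold change of Arrdc4 was -0.23 ± 0.17, of the same sign as that of Txnip, and that of Pklr was 0.13 ± 0.24. Whether either shares an input with Txnip was not tested. The list's median of 0.0083 over 6 genes was 0.03 on omitting control replicate 1 and turned to -0.01 on omitting control replicate 2, to -0.06 on omitting knockout replicate 1 and to -0.05 on omitting knockout replicate 2.

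A further list joined selenoprotein synthesis factors, on which Gpx1, Gpx3 and Gpx4 depend, and other selenoproteins (Selenow, Selenok, Selenop and Selenot). It had a median of -0.04 over 10 genes (0.01 on omitting control replicate 2, 0.12 on omitting knockout replicate 1). Sepsecs and Pstk, enzymes that make the selenocysteine tRNA, stood at 0.23 ± 0.17 and 0.19 ± 0.14. Sepsecs was at 0.45 and 0.03 on omitting control replicates 1 and 2, and Pstk at 0.30 and 0.08 on omitting knockout replicates 1 and 2. The peroxisome genes, partners of catalase in that organelle, had a median of 0.05 over 7 genes (-0.04 on omitting control replicate 2, 0.14 and -0.03 on omitting knockout replicates 1 and 2), with Pex5 at -0.22 ± 0.17 and Pex11a at 0.21 ± 0.20, which ran with 1 library left out from -0.34 to -0.11 and from 0.06 to 0.36. The oxidant-producing enzymes had a median of -0.23 over 5 tested of 8. That median was -0.08 and -0.38 on omitting control replicates 1 and 2 and -0.13 on omitting knockout replicate 2. In other fits of all 4 libraries it was -0.09 with no low-count filter and -0.13 with DESeq2. The xanthine dehydrogenase gene Xdh measured 4.26 and 5.53 CPM in control and 2.28 and 3.18 CPM in knockout libraries, from 22 to 52 counts (-0.86 ± 0.33, interval -1.62 to -0.09, unadjusted p = 0.0319 and adjusted p = 0.9997 in edgeR). Ero1a, a peroxide-producing oxidase of the endoplasmic reticulum, stood at -0.23 ± 0.14 (-0.14 without knockout replicate 2).

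**Figure D4:**
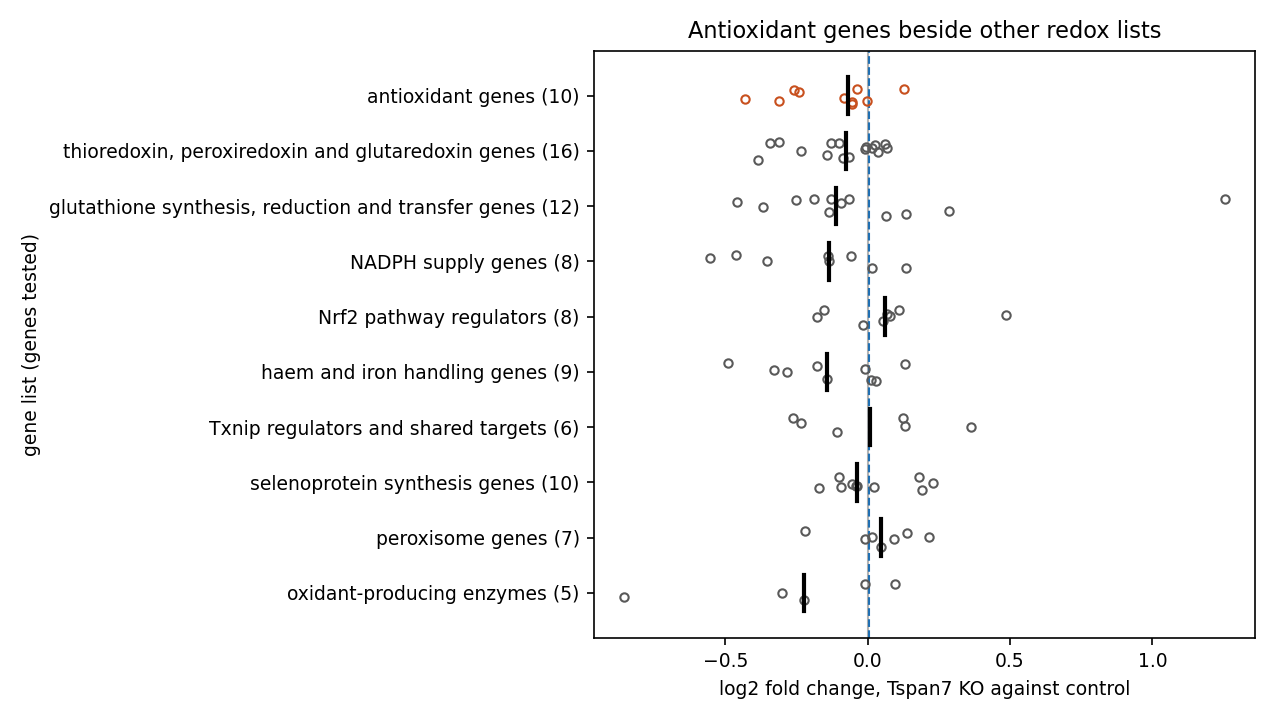
Log2 fold change of knockout against control for each tested gene (circles) of the antioxidant genes (orange) and of 9 related lists (grey), with black bars at the list medians, a grey line at 0 and a dashed line at the median of all tested genes (0.0034). List medians lay between -0.23 and 0.06, and no gene shown passed the test.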

How the data were processed

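The authors deposited 1 table of raw counts per Ensembl gene with 1 column per library. Per the submitters' processing notes, HISAT2 and featureCounts were used with the build GRCm39. Their versions, the annotation release, the strand setting and the treatment of multi-mapping reads are not given in these sources. Symbols and exon lengths came from GENCODE M21 (GRCm38, 52403 of 52636 identifiers matched), with 2 symbols resolved through RefSeq synonyms.

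Counts were analysed in edgeR 4.0.16 (R 4.3.3, limma 3.58.1): filterByExpr with minimum count 10, TMM scaling, and the robust quasi-likelihood test, two-sided, with no covariate. P-values were Benjamini-Hochberg adjusted over all 16924 tested genes and called under 0.05. SEs and 95% intervals come from that test and CPM is scaled by TMM. The pipeline was tested on simulated data. Alternatives were DESeq2 1.42.0, limma-voom, other scalings, no filter, a replicate block and leaving out each library.

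The 10 genes and all lists were chosen with earlier results of these data known. Named from each list are the 2 genes of smallest p, while Nfe2l2, Arrdc4, Pklr, Sod3, Gpx5 and Gpx6 were added after their values were seen. Floors cover counting error only, since the labels name no molecular identifiers.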

Additional observations from a re-analysis of the deposited data

How the results depend on the processing

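No antioxidant gene passed the test under any of the alternatives run, which included DESeq2, limma-voom, no low-count filter, the block, DESeq2 size factors and upper-quartile scaling. The fits that leave out a library also called 0 of the 10, but each leaves 1 sample in a group, which is assumed to vary like the other group, and they say nothing about stability. Over all genes the counts of higher and lower calls, 0 and 1 in the report, were 15 and 47 with no low-count filter, 0 and 4 with DESeq2, and ran from 0 to 33 higher and from 1 to 15 lower with 1 library left out, the highest of both without control replicate 1. The median of the 10 genes ran from -0.19 to 0.0047 with 1 library left out, the latter without knockout replicate 1. With 1 library left out, the log2 fold changes that crossed 0 ran from -0.050 to 0.042 for Sod1, -0.15 to 0.046 for Gpx3, -0.33 to 0.20 for Cat, -0.18 to 0.10 for Gpx1 and -0.57 to 0.093 for Nqo1. Sod1 was also 0.0078 with no low-count filter. The causes were not tested. With the replicate number as a block there were 1 higher and 5 lower calls over all genes. Samples of the same number deviated in opposite directions (correlation -0.30 across all tested genes), while over the 10 genes alone the same-numbered libraries were the closest (0.111 and 0.122, median absolute log2 ratio). No label says that a number marks a shared batch or animal, so the numbers were not taken as pairs. A crossed replicate block, chosen after seeing the data, gave 1 higher and 1 lower call. Neither block called any of the 10. At an unadjusted p under 0.05 the replicate block gave 0 and the crossed block 2 of them, against 530 and 1105 of all 16924 tested genes. Of the 81 related genes, 1 under the replicate block and 8 under the crossed block were at an unadjusted p under 0.05. Depth limits Cat and Nqo1 most, with at most 51 counts in a library. The 2 libraries per group leave intervals of the 10 genes that reach from 0.478 to 1.57 times control.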
